A study of Mus musculus with 30 samples.

Results

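The mitochondrial carriers are the genes of the Slc25 family together with the uncoupling proteins Ucp1, Ucp2 and Ucp3. They were taken by symbol, as every row of the deposited expression table named Slc25a followed by a number or Ucp1 to Ucp3, which gave 50 of the 53974 genes listed. Of these, 40 reached 1 TPM (a level scaled for transcript length and for the library's total) in at least 4 of the 12 progenitor libraries and were tested, among 14857 tested genes. The 10 left untested were Slc25a2, Slc25a21, Slc25a31, Slc25a34, Slc25a41, Slc25a43, Slc25a48, Slc25a54, Ucp1 and Ucp3.

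RNA was measured in neural stem/progenitor cells (NSPCs) grown from the forebrain of E13.5 C57BL/6 mice, passages P1-P3, in medium with EGF and FGF. Control cells received DMSO, and the other groups received 10 mM crotonate, a short-chain fatty acid that cells turn into crotonyl-CoA, the donor for lysine crotonylation (Kcr), or MS-275, which blocks class I histone deacetylases, at 1 µM, each for 24 h. Each of the 3 groups had 4 libraries, and the labels name no vehicle for crotonate. The same table holds 1 library of whole E13.5 C57BL/6 forebrain, and a separate comparison table covers E13.5 ICR forebrain explants, 3 control and 3 crotonate, whose labels give no dose or time. Peak lists came from 1 library each: all lysine acetylation (Kac) and all Kcr under the 3 progenitor conditions, and H3K9ac and H3K9cr in forebrain.

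Mitochondrial carriers sit in the inner mitochondrial membrane, which is closed to most solutes, and exchange nucleotides, phosphate, organic acids, amino acids, acylcarnitines and cofactors between cytosol and matrix. The ADP/ATP carriers and the phosphate carrier supply ATP synthase and are the most abundant of them in most tissues. The aspartate-glutamate carriers work in the malate-aspartate shuttle, and the carnitine-acylcarnitine carrier brings fatty acyl groups to beta-oxidation. Ucp1 lets protons back into the matrix in brown fat, while Ucp2 is a more widely expressed relative that has been linked to the choice between glucose and fatty acid or glutamine fuel.

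The labelled cell type was checked against its markers. The 8 stem and progenitor markers summed to 9628 to 10160 TPM in control NSPCs and to 8993 to 9876 TPM under crotonate. Under MS-275 they summed to 13550 to 14220 TPM. With crotonate none of the 8 was higher and 1 was lower in limma's test, or 3 and 1 after quantile normalization. With MS-275 Vim rose from 3671 to 5970 TPM and Fabp7 from 4946 to 6898 TPM, while 3 of 8 were lower, Nes and Pax6 among them. Of all tested genes 32.3% were higher and 15.9% lower with crotonate, and 37.4% and 27.6% with MS-275. Neuron markers summed to 315 to 336, 285 to 313 and 387 to 402 TPM. Most of these sums was Map2, with means of 303, 245 and 318 TPM, while Dcx averaged 1.57 TPM and Tubb3 11.8 TPM in control. In limma's test 6 of 7 were higher under either treatment (4 with crotonate after quantile normalization), though Map2 was lower with crotonate. Astrocyte markers summed to 73.7 to 88.1, 109 to 124 and 136 to 166 TPM, with 3 of 5 higher with crotonate (2 after quantile normalization) and 4 of 5 with MS-275. The oligodendrocyte list, led by Olig1 and Olig2, summed to 1686 to 1885, 1848 to 2099 and 2843 to 3123 TPM, with 2 and 3 of 6 higher. After median-of-ratios scaling 1 was higher with crotonate and 2 with MS-275. After quantile normalization 1 was higher and 1 lower with crotonate, and 3 were higher with MS-275. Nes, the progenitor filament nestin, was lower under both treatments. Microglia and leukocyte markers summed to at most 3.61 TPM and erythroid markers to at most 2.55 TPM in any NSPC library, with Hbb-bt and Hbb-bs at 0 in all group means, and of 5 endothelial markers only Kdr reached the level needed for testing. The part of these shifts in the changes below was not tested, and in bulk RNA a change in the share of cells of a type and a change in RNA per cell cannot be told apart. TPM columns carry no read depth, and the depth behind each level is therefore unknown.

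The promoter stretches below belong to the 4 carriers that gained a Kcr peak with crotonate, rose in RNA with crotonate, and had an entry in the promoter table. They are shown because the new peaks lay at or just downstream of their starts. The sequences are RefSeq's for GRCm38.p6, each 5′ to 3′ on the gene's strand and limited to bases outside the annotated gene. Ucp2 spans chr7:100493108-100493336 on the plus strand. Slc25a13 spans chr6:6217305-6217423 on the minus strand, Slc25a20 chr9:108661886-108662135 on the plus strand and Slc25a30 chr14:75787038-75787287 on the minus strand. Capitals mark GC boxes (GGGCGG, the Sp1-type motif) and CCAAT boxes (CCAAT) on either strand.
Ucp2: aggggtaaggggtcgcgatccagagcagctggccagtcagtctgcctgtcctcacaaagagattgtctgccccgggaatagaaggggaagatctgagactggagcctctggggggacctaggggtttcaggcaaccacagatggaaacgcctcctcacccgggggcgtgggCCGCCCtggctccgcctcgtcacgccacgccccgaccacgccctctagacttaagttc
Slc25a13: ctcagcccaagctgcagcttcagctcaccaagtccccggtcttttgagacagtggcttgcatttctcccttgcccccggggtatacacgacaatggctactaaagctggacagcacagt
Slc25a20: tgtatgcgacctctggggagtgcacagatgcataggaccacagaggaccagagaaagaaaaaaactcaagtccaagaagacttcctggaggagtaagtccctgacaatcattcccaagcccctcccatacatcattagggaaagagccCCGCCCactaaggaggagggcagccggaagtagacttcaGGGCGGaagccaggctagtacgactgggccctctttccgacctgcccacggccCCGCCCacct
Slc25a30: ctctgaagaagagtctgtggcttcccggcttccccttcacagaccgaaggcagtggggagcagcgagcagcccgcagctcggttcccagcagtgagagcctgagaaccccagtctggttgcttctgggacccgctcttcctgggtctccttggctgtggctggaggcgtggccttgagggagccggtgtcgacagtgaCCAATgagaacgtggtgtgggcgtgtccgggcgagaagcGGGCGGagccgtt

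The Ucp2 stretch held 1 GC box and 13 CpG dinucleotides in 229 bases, and its GC content was 63.3%. In Slc25a20 there were 3 GC boxes and 8 CpG in 250 bases, and in Slc25a30 1 GC box, 1 CCAAT box and 16 CpG in 250 bases. The 119 bases of Slc25a13 held neither motif and 3 CpG, and they ended 132 bases upstream of its listed start. Its window of 250 bases before to 50 after that start held 1 CCAAT box and 17 CpG. Over windows of 250 bases before to 50 after the start of the 31 tested carriers with an entry, a GC box was found in 27, or 87.1%, against 65.6% of 10803 tested genes. A CCAAT box was found in 15, or 48.4%, against 39.2%, and the median number of CpG was 19 against 21. None of the 31 windows held the estrogen-related receptor motif TCAAGGTCA, which 0.278% of tested genes did. The cAMP response element TGACGTCA was found in Slc25a36 alone, against 3.31% of genes, and TATAAA in Slc25a18 alone, against 6.62%. Motifs were searched on both strands, and these matches describe letters in a window only.

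In control NSPCs the carriers' levels ran from 1700 TPM down to 0. Slc25a5, the ADP/ATP carrier of proliferating cells, was highest, and 7 carriers had a mean of at least 100 TPM, 24 lay between 10 and 100, 9 between 1 and 10, and 10 under 1. Slc25a5 read 1716, 1745, 1723 and 1617 TPM in the 4 control libraries. Slc25a3, the phosphate carrier, read 637, 614, 641 and 622 TPM. Slc25a4, the ADP/ATP carrier best known from heart and muscle, read 428, 404, 407 and 402 TPM. The ranges of these 3 did not overlap, so the order Slc25a5, Slc25a3, Slc25a4 held in every control library. Slc25a39, which carries glutathione, followed at 206, 200, 209 and 202 TPM, and Slc25a18, a glutamate carrier, at 142 ± 8.38 TPM (SD, n = 4). Slc25a1, the citrate carrier, and Slc25a25, an ATP-Mg/phosphate carrier, had means of 118 ± 18.4 and 115 ± 7.68 TPM, which differ by less than their spread.

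The carriers together summed to 4190 ± 71.9 TPM in control NSPCs (SD, n = 4), 4091 ± 41.1 with crotonate and 4453 ± 61.7 with MS-275, against 2397 TPM in the forebrain library. Slc25a5 alone made up 40.6% ± 1.06 of the control sum and 35.8% ± 1.57 with crotonate. Without Slc25a3, Slc25a4 and Slc25a5 the remaining carriers summed to 1417 to 1502 TPM in the control libraries, 1572 to 1672 TPM under crotonate and 1626 to 1700 TPM under MS-275. The treated ranges lie above the control range in that sum. It is a sum of deposited TPM and was not repeated under another scaling. Ucp2, which is part of it, averaged 9.04 TPM in control, 65.5 TPM with crotonate and 132 TPM with MS-275.

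**Figure D1:**
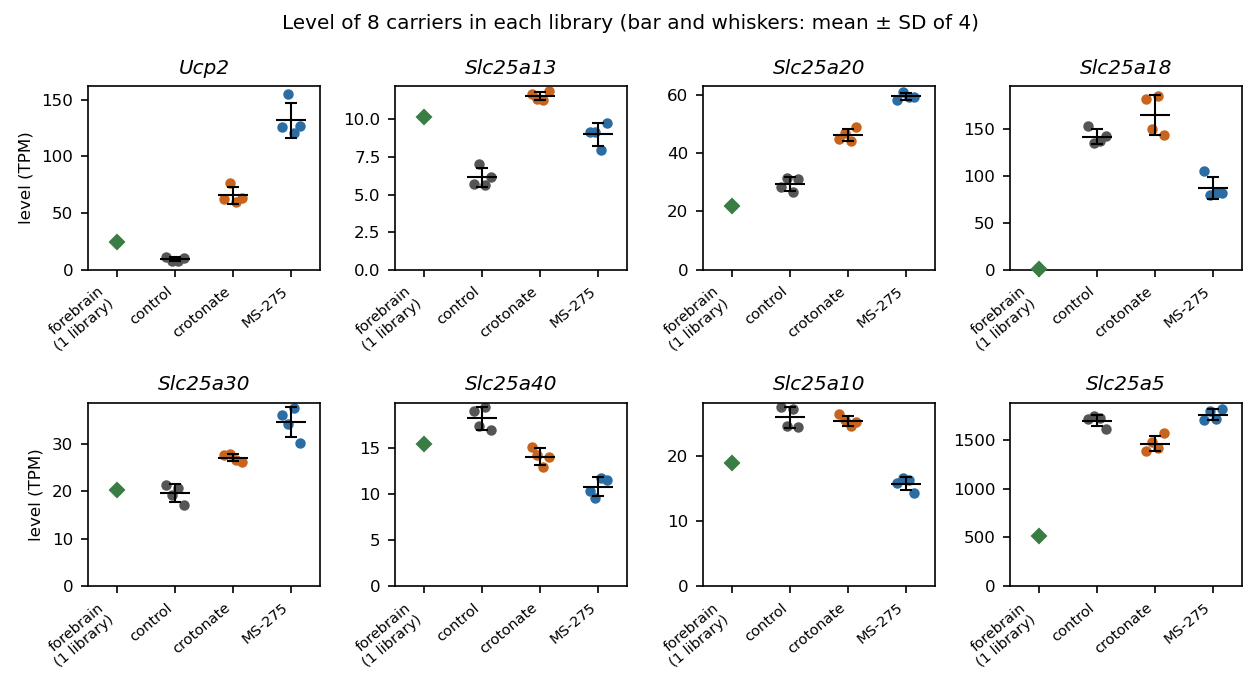
Level of 8 carriers in TPM (y axis, from 0) in the forebrain library (diamond) and in each of the 4 control, crotonate and MS-275 NSPC libraries (points), with the mean and SD of each NSPC group (bar and whiskers). Ucp2 lies between 7.66 and 11.0 TPM in control, between 59.8 and 76.8 with crotonate and between 121 and 155 with MS-275, while Slc25a18 is near 0 in forebrain.

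Crotonate was compared with control to see how the carriers respond to added crotonyl-CoA precursor. Of the 40 tested carriers 14 were higher and 6 lower at an adjusted p under 0.05 in limma's test, against 32.3% and 15.9% of all 14857 tested genes, and the median log2 fold change was 0.06 against 0.09 for all genes. The share of carriers called higher was thus close to that of all genes. After median-of-ratios scaling, which shifted the all-gene median log2 fold change by -0.12, 8 carriers were higher and 11 lower, against 23.6% and 28.4% of all genes. After quantile normalization, with a shift of -0.13, the counts were 12 and 11, against 20.8% and 24.8%. The 8 carriers higher under all 3 scalings were Ucp2, Slc25a13, Slc25a20, Slc25a23, Slc25a27, Slc25a29, Slc25a30 and Slc25a36, and the 5 lower under all 3 were Slc25a5, Slc25a11, Slc25a25, Slc25a40 and Slc25a44. The share of all tested genes called under all 3 is not given here, so these names are a list only.

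Ucp2 changed most among the carriers under crotonate. Its level was 11.0, 7.72, 7.66 and 9.82 TPM in control and 62.3, 76.8, 59.8 and 63.2 TPM with crotonate. Every crotonate library lay above every control library, a 7.25-fold difference of means. The log2 fold change was 2.74 (SE 0.12, 95% interval 2.48 to 2.99, adjusted p = 8.8e-09 in limma), and it stayed between 2.66 and 2.83 when each of the 12 libraries was left out in turn. Of the other relatives of the uncoupling proteins, Slc25a27 (UCP4) rose from 13.1 ± 1.58 to 17.5 ± 0.735 TPM (SD, n = 4 each), whereas Slc25a14 (UCP5) had a log2 fold change of -0.06 and an adjusted p of 0.524 in limma. Slc25a30, a kidney-type relative, read 21.4, 19.2, 20.7 and 17.1 TPM in control and 27.7, 27.9, 26.6 and 26.3 TPM with crotonate. All 4 crotonate libraries were higher than the controls (log2 fold change 0.45, adjusted p = 3.96e-04 in limma). Ucp1 and Ucp3 had group means of 0.126 TPM or less under each condition.

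Among the 9 tested carriers of amino acids and carnitine, 5 were higher with crotonate and 1 was lower, against 32.3% and 15.9% of all tested genes. After median-of-ratios scaling the counts were 3 and 1, against 23.6% and 28.4%, and after quantile normalization 4 and 1, against 20.8% and 24.8%. Slc25a13, the citrin form of the aspartate-glutamate carrier, read 5.71, 7.06, 5.66 and 6.15 TPM in control and 11.7, 11.3, 11.3 and 11.9 TPM with crotonate. These groups did not overlap, and the log2 fold change was 0.82 (SE 0.08, adjusted p = 4.88e-06 in limma). Its paralog Slc25a12, aralar, averaged 60.1 ± 3.91 TPM in control and 72.6 ± 5.30 TPM with crotonate, a log2 fold change of 0.27 whose adjusted p in limma was 0.00257, and 0.0627 after median-of-ratios scaling. Slc25a13 thus made up 9.31% ± 1.24 of the summed pair in control and 13.8% ± 1.07 with crotonate. Slc25a20, the carnitine-acylcarnitine carrier, read 28.2, 31.3, 26.6 and 31.1 TPM in control and 44.6, 46.9, 44.2 and 48.9 TPM with crotonate. Again all 4 treated libraries were above the controls, with a log2 fold change of 0.64 (SE 0.06, adjusted p = 1.99e-06 in limma). Slc25a29, a carrier of basic amino acids, and Slc25a15, the ornithine carrier of the urea cycle, had log2 fold changes of 0.32 and 0.20, and the call for Slc25a15 ended under both other scalings. Slc25a44, a carrier of branched-chain amino acids, fell by 0.15 on the log2 scale.

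Of 9 tested nucleotide and phosphate carriers, 3 were higher and 3 lower with crotonate, against 32.3% and 15.9% of all tested genes. After median-of-ratios scaling the counts were 1 and 4, against 23.6% and 28.4%, and after quantile normalization 3 and 3, against 20.8% and 24.8%. Slc25a5 read 1393, 1484, 1415 and 1569 TPM with crotonate, all below the lowest control library at 1617 TPM, a log2 fold change of -0.22 (SE 0.04, adjusted p = 8.35e-04 in limma). Slc25a4 read 376, 389, 375 and 394 TPM, a log2 fold change of -0.10 with an adjusted p of 0.0225 in limma. That call ended under quantile normalization (adjusted p = 0.75), without limma's trend (0.0679) and without control library 1, crotonate library 1 or crotonate library 3, where the adjusted p reached 0.0718. Among the calcium-regulated ATP-Mg/phosphate carriers, Slc25a23 rose from 79.5 ± 5.403 to 109 ± 2.73 TPM and Slc25a25 fell from 115 ± 7.68 to 87.5 ± 7.04 TPM. Slc25a24, of the same group, had a log2 fold change of 0.31 that turned to -0.02 under quantile normalization and missed the threshold after median-of-ratios scaling (adjusted p = 0.0671 in limma).

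Of the 3 tested carriers of organic acids, Slc25a11, the oxoglutarate carrier, read 87.6, 87.6, 89.6 and 90.9 TPM in control and 80.1, 78.8, 80.3 and 79.8 TPM with crotonate. The groups did not overlap, and it fell by 0.16 on the log2 scale (adjusted p = 0.00526 in limma). Slc25a11 overlaps Rnf167 on the genome, and reads of the overlap may have been shared between them. Slc25a10, the dicarboxylate carrier, and Slc25a1 had log2 fold changes of -0.03 and 0.12 with adjusted p-values of 0.734 and 0.32. Among 10 tested carriers of iron, cofactors and pyrimidine nucleotides, 3 were higher and 1 was lower, against 32.3% and 15.9% of all tested genes. The counts became 1 and 4 after median-of-ratios scaling, against 23.6% and 28.4%. They were 2 and 4 after quantile normalization, against 20.8% and 24.8%. Slc25a36, a pyrimidine nucleotide carrier, rose from 86.9 ± 5.05 to 122 ± 6.67 TPM (log2 fold change 0.48), and Slc25a40, the paralog of the glutathione carrier Slc25a39, fell from 18.2 ± 1.21 to 14.1 ± 0.901 TPM. Slc25a37, mitoferrin-1, was higher by 0.23 on the log2 scale, and its call ended after median-of-ratios scaling (adjusted p = 0.227 in limma), under quantile normalization (0.179) and without crotonate library 3 (0.051).

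**Figure D2:**
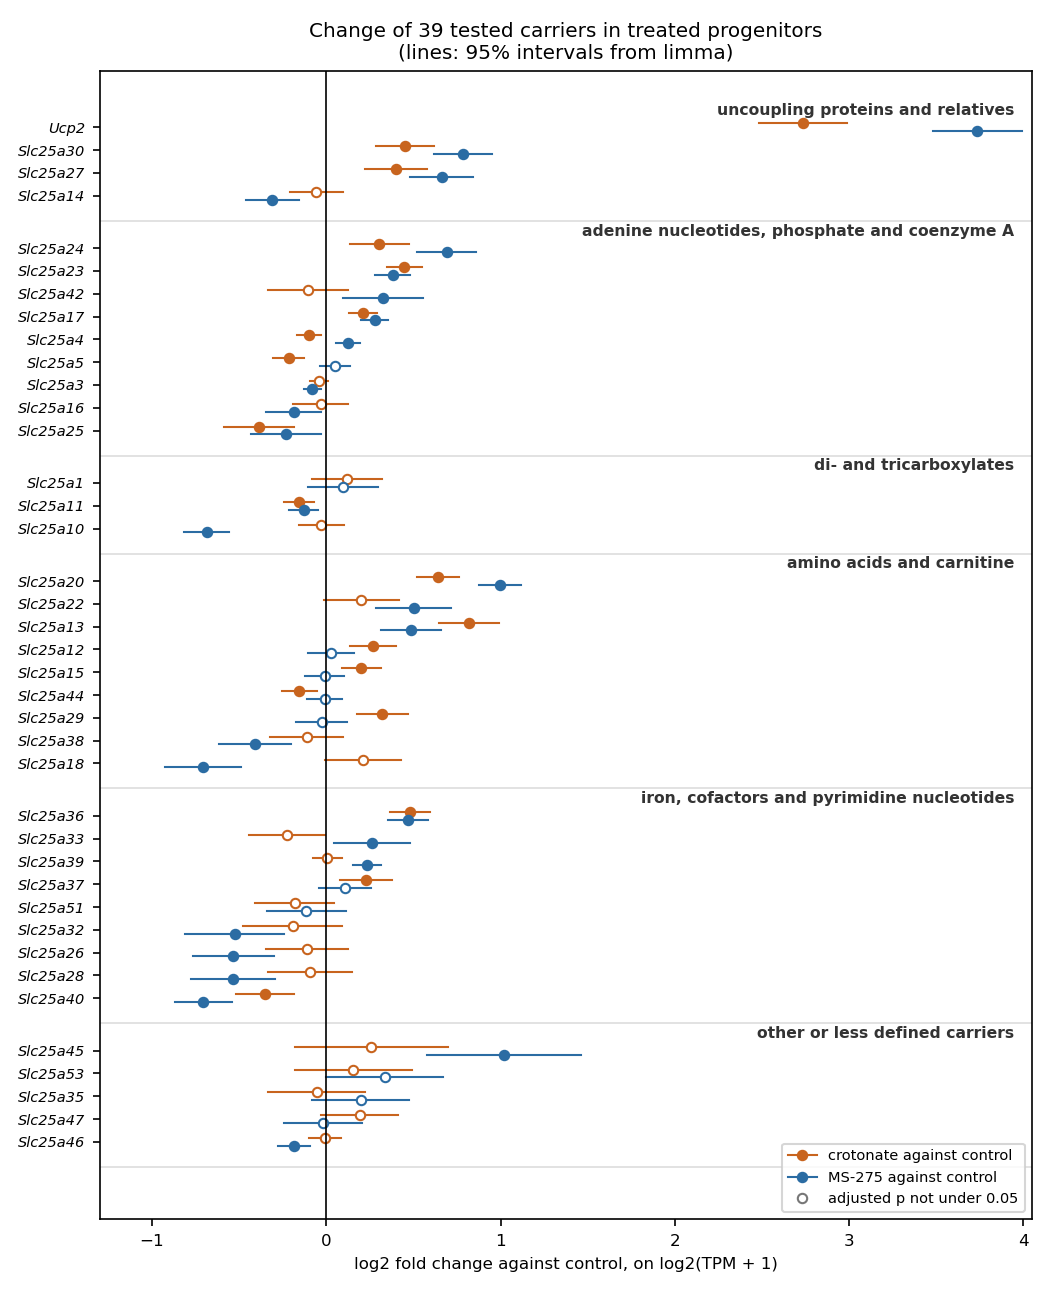
Log2 fold change against control on log2(TPM + 1) (x axis) for 39 of the 40 tested carriers (y axis, grouped by role), with crotonate in orange and MS-275 in blue, lines for 95% intervals from limma and open points where the adjusted p was not under 0.05. Ucp2 stands at 2.74 and 3.73, and every other carrier drawn lies between -0.71 and 1.02.

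MS-275 was compared with the same 4 control libraries to see the response to deacetylase inhibition. Of the 40 carriers 16 were higher and 13 lower in limma's test, against 37.4% and 27.6% of all tested genes, with a median log2 fold change of 0.07 against 0.08. After median-of-ratios scaling the counts were 12 and 14, against 31.6% and 34.2% of all genes. After quantile normalization, which moved the median of all genes by -0.13, they were 13 and 12, against 29.6% and 34.1%. In all 3 scalings 11 carriers were called higher and 10 lower. The like share of all tested genes is not given here, so these 2 counts cannot be set against it.

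Ucp2 read 126, 155, 121 and 127 TPM with MS-275, all above the highest crotonate library at 76.8 TPM. The difference from control was 14.6-fold in means, with a log2 fold change of 3.73 (SE 0.12, adjusted p = 2.14e-10 in limma). Slc25a30 read 36.2, 34.3, 37.5 and 30.3 TPM, all above the crotonate libraries, and Slc25a27 rose to 21.2 ± 1.76 TPM. Their log2 fold changes were 0.79 and 0.66, and Slc25a14 fell by 0.31. The uncoupling proteins and their relatives summed to 56.8 to 61.3 TPM in control, 119.5 to 139 TPM under crotonate and 191 to 228 TPM under MS-275, most of the rise being Ucp2. Ucp2 is known from microglia and other immune cells too. Of 5 microglia and leukocyte markers 3 were under 1 TPM in every NSPC library. The 5 summed to 0.129 to 1.256 TPM in control, 0.196 to 3.56 TPM with crotonate and 0.157 to 3.61 TPM with MS-275. The part of such cells in the Ucp2 values was not tested. The 5 genes whose pattern over the 12 NSPC libraries was most like that of Ucp2 were Nipal3, Dok5, Pecr, Ppfibp1 and Abca7, with Pearson correlations of 0.993 to 0.998 on log2(TPM + 1). This is a description, since the 12 libraries share their treatment groups. Of these, Pecr, a peroxisomal enoyl-CoA reductase, went from 10.8 to 19.2 and 23.3 TPM.

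Of the 9 carriers of amino acids and carnitine 3 were higher and 2 lower with MS-275, against 37.4% and 27.6% of all tested genes. The counts were 3 and 3 after median-of-ratios scaling, against 31.6% and 34.2%. They were 2 and 2 after quantile normalization, against 29.6% and 34.1%. Slc25a20 read 58.0, 61.0, 59.3 and 59.2 TPM with MS-275, above all crotonate and control libraries, a log2 fold change of 1.00 (SE 0.06, adjusted p = 1.16e-08 in limma). Slc25a13 read 9.20, 9.15, 7.95 and 9.74 TPM, between the control and crotonate ranges, a log2 fold change of 0.49 that missed the threshold under quantile normalization (adjusted p = 0.0983 in limma). Slc25a18 read 105, 79.3, 82.3 and 81.5 TPM against 154, 135, 137 and 143 TPM in control. No library overlapped, and the log2 fold change was -0.71 (SE 0.10, adjusted p = 4.39e-05 in limma). Slc25a22, the paralogous glutamate carrier, rose from 20.5 ± 2.78 to 29.3 ± 1.41 TPM, so that Slc25a18 fell from 87.4% ± 1.60 to 74.7% ± 2.69 of the summed pair. Slc25a18 is a known astrocyte gene. With MS-275 it was lower, and 4 of the 5 astrocyte markers were higher, against 37.4% of all tested genes. With crotonate its log2 fold change was 0.21 (adjusted p = 0.103 in limma, 0.0265 with the replicate block). There 3 of the 5 markers were higher, against 32.3% of genes, or 2 after quantile normalization, against 20.8%. The part of cell composition in these values was not tested. Slc25a38, a glycine carrier needed for heme synthesis, fell by 0.41 on the log2 scale.

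Of the 9 nucleotide and phosphate carriers 5 were higher and 3 lower with MS-275, against 37.4% and 27.6% of all tested genes. The counts were 3 and 3 after median-of-ratios scaling, against 31.6% and 34.2%. They were 4 and 1 after quantile normalization, against 29.6% and 34.1%. Slc25a5 read 1710, 1798, 1717 and 1821 TPM, a log2 fold change of 0.05 whose 95% interval ran from -0.04 to 0.14 (adjusted p = 0.29 in limma). Slc25a4 read 461, 451, 429 and 448 TPM, above every control library, with a log2 fold change of 0.12 (adjusted p = 0.00412 in limma, 0.559 after median-of-ratios scaling). Slc25a3 read 594, 598, 591 and 595 TPM, a log2 fold change of -0.08 that turned to 0.05 under quantile normalization and missed the threshold without limma's trend (adjusted p = 0.0545). Slc25a24 rose by 0.69 on the log2 scale, to 11.6 ± 0.778 TPM from 6.81 ± 0.593 TPM.

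Slc25a10, which exchanges malate and succinate for phosphate, fell most among the carriers of organic acids. It read 27.5, 24.5, 27.1 and 24.5 TPM in control and 15.8, 16.6, 16.3 and 14.2 TPM with MS-275. The groups did not overlap, and the log2 fold change was -0.69 (SE 0.06, adjusted p = 5.79e-07 in limma). Among the 10 carriers of iron, cofactors and pyrimidine nucleotides 4 were higher and 4 lower, against 37.4% and 27.6% of all tested genes. After median-of-ratios scaling the counts were 2 and 4, against 31.6% and 34.2%, and after quantile normalization 3 and 4, against 29.6% and 34.1%. Slc25a40 fell to 10.3, 9.60, 11.7 and 11.5 TPM, from 19.0, 17.4, 19.4 and 16.9 TPM, by 0.71 on the log2 scale, and lay below every control library. Slc25a39 read 248, 224, 245 and 246 TPM with MS-275 and rose by 0.24 on the log2 scale. Slc25a40 made up 8.18% ± 0.377 of that glutathione carrier pair in control, 6.41% ± 0.406 with crotonate and 4.29% ± 0.278 with MS-275. Slc25a26, the S-adenosylmethionine carrier, Slc25a28, mitoferrin-2, and Slc25a32, the folate carrier, each fell by 0.53 on the log2 scale. Slc25a26 overlaps Lrig1, so that its reads are less certain, and its mean went from 4.93 to 3.10 TPM. Outside the rule for named genes, chosen after its values were seen, Slc25a45 rose from 1.37 ± 0.686 to 3.71 ± 0.684 TPM.

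The direct comparison of MS-275 with crotonate, in which control libraries enter only the estimate of spread, had 13 carriers higher and 12 lower, against 19.3% and 27.4% of all tested genes. The counts were 13 and 12 after median-of-ratios scaling, against 21.5% and 24.5% of genes, and 14 and 12 after quantile normalization, against 22.4% and 24.9%. Ucp2 was 2.01-fold higher with MS-275 (log2 fold change 1.00, SE 0.12, adjusted p = 2.45e-05 in limma) and Slc25a20 1.29-fold higher (0.36, adjusted p = 2.21e-04). Slc25a18 and Slc25a10 were lower by 0.92 and 0.66 on the log2 scale, and Slc25a13 by 0.33. All 9 tested amino acid and carnitine carriers differed between the treatments, 3 higher and 6 lower with MS-275. Some of these calls ended under an alternative. The call of Slc25a22 ended without crotonate library 1 or 3 or MS-275 library 3, that of Slc25a38 without crotonate library 2 or 4 or MS-275 library 2, and that of Slc25a44 without crotonate library 3 or 4 or MS-275 library 2 or 4, with adjusted p-values of up to 0.0789, 0.067 and 0.0668. The call of Slc25a22 also ended with no filter on low values, and that of Slc25a38 under quantile normalization (adjusted p = 0.058 in limma). Slc25a4 and Slc25a5 were higher by 0.22 and 0.27. The doses and mechanisms of the agents differ, so the contrast compares these treatments only.

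Genes that work beside the carriers were taken from 4 fixed lists. Of all tested genes, 32.3% rose and 15.9% fell with crotonate, and 37.4% and 27.6% with MS-275. After median-of-ratios scaling these shares were 23.6% and 28.4% with crotonate, and 31.6% and 34.2% with MS-275. After quantile normalization they were 20.8% and 24.8%, and 29.6% and 34.1%. Of 12 genes that import carriers into the inner membrane, none rose and 5 fell with crotonate, or 7 after median-of-ratios scaling, while 10 fell with MS-275, the same counts for MS-275 under all 3 scalings. Tomm40, the channel of the outer membrane, went from 137 to 111 and 89.6 TPM (log2 fold changes -0.30 and -0.60), and Timm10, a chaperone of the intermembrane space, from 95.1 to 81.8 and 65.3 TPM. Timm10b fell by 0.34 with crotonate. Of 16 other mitochondrial transporters 4 rose and 6 fell with either treatment. These counts became 3 and 8 with crotonate and 2 and 7 with MS-275 after median-of-ratios scaling, and 2 and 3 and 5 and 4 after quantile normalization. Sfxn1, the mitochondrial serine transporter, rose from 98.6 to 129 TPM with crotonate, and Mpc2, a subunit of the pyruvate carrier, from 40.3 to 51.9 TPM. Vdac3, a porin of the outer membrane, fell from 319 to 247 and 212 TPM, and Vdac2 by 0.13 with crotonate. Mtch1 rose by 0.23 with MS-275. The call of Vdac2 ended under quantile normalization (adjusted p = 0.347 in limma).

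Of 14 tested matrix enzymes 6 rose and 4 fell with crotonate, against 32.3% and 15.9% of all tested genes. These counts became 1 and 5 after median-of-ratios scaling, against 23.6% and 28.4%, and 6 and 3 after quantile normalization, against 20.8% and 24.8%. With MS-275 7 rose and 5 fell, against 37.4% and 27.6%. These became 4 and 7 after median-of-ratios scaling, against 31.6% and 34.2%, and 7 and 4 after quantile normalization, against 29.6% and 34.1%. Mthfd2 and Shmt2, enzymes of mitochondrial one-carbon metabolism, fell by 0.70 and 0.44 on the log2 scale with crotonate and by 1.25 and 0.64 with MS-275. Cpt2, which hands acyl groups from carnitine to CoA, rose from 13.7 to 19.3 and 25.0 TPM. Got2 was higher by 0.17 with crotonate, but not after median-of-ratios scaling (adjusted p = 0.342 in limma), and Acadl and Idh2 by 0.45 and 0.32 with MS-275. Of 12 regulators of mitochondrial genes 2 rose and 3 fell with crotonate. With MS-275 3 rose and 3 fell, beside the same shares of all genes. With crotonate none rose and 3 fell after median-of-ratios scaling, and 1 rose and 6 fell after quantile normalization, while with MS-275 the counts were 2 and 3, and 2 and 5. Pprc1, a coactivator of the PGC-1 family, fell from 65.1 to 39.3 and 26.8 TPM, and Gabpa from 50.3 to 44.3 and 29.4 TPM. Ppard rose from 24.6 to 35.4 TPM with MS-275 and Ppara from 0.851 to 1.63 TPM, the latter not under quantile normalization (adjusted p = 0.882). Tfb1m and Esrra were higher by 0.28 and 0.24 with crotonate, neither of which passed after median-of-ratios scaling (adjusted p = 0.143 and 0.262), nor did Tfb1m under quantile normalization (0.956).

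Forebrain tissue was set beside control NSPCs to see how culture differs from the source, with 1 library and therefore no test. Of 40 carriers at 1 TPM or more in at least 1 of these 5 libraries, 5 were at least 2-fold higher in forebrain and 7 at least 2-fold lower, against 23.7% and 10.5% of 16636 such genes. Slc25a18 differed most, at 0.759 TPM in forebrain against a lowest control library of 135 TPM, a 187-fold ratio of the control mean to the forebrain value. Slc25a22, its paralog, was the other way round at 78.0 TPM against a control maximum of 22.5 TPM, so Slc25a18 made up 0.964% of the pair in forebrain. Slc25a27, a neuronal carrier, stood at 76.1 TPM against 13.1 ± 1.58, and Ucp2 at 24.3 TPM against 9.04 ± 1.63. Slc25a47 and Slc25a26 were the other 2 that were higher. Slc25a5 stood at 513 TPM and Slc25a39 at 60.4 TPM, 3.31-fold and 3.38-fold below the control means, and Slc25a25, Slc25a15, Slc25a35 and Slc25a37 were lower too. Neuron markers summed to 2861 TPM in forebrain and erythroid markers to 4873 TPM, and their part in these differences was not tested.

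**Figure D3:**
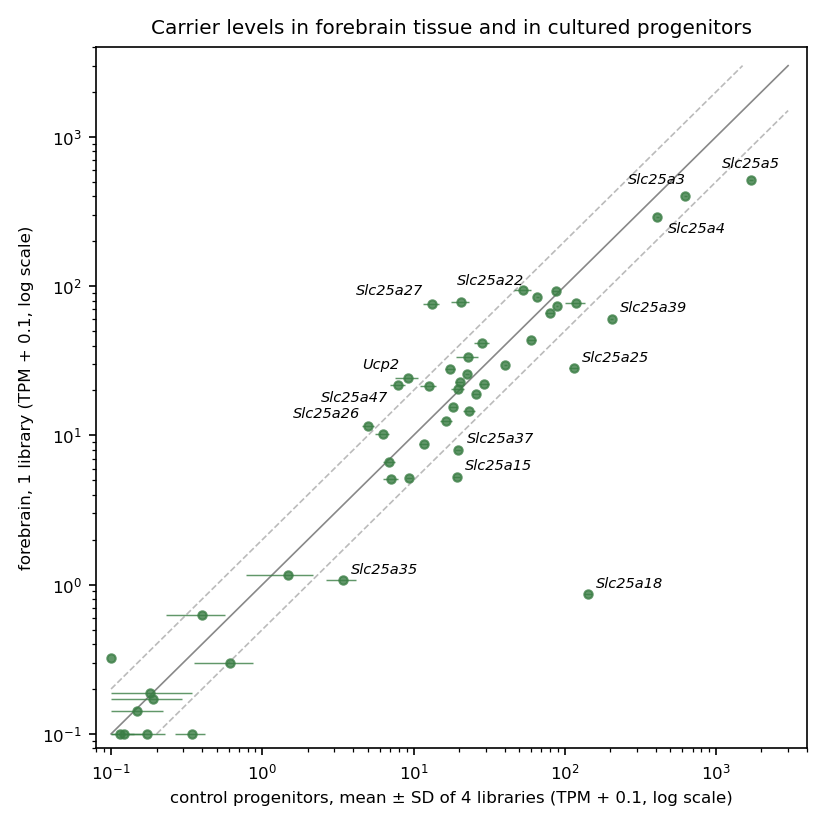
Level of the 50 carriers in the forebrain library (y axis) against the mean and SD of 4 control NSPC libraries (x axis), both as TPM + 0.1 on log scales, with the line of equality and dashed lines at a 2-fold difference. Slc25a18 lies far below the line, at 0.759 TPM in forebrain and 142 TPM in NSPCs, and Slc25a27 and Slc25a22 lie above it.

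The explants give the crotonate comparison in tissue, from another strain and with no library shared with the NSPCs. The authors' deposited table gives an adjusted p for 38 of the 50 carriers, of which 4 were higher and 2 lower with crotonate at 0.05, against 10.5% and 9.75% of 14507 genes. In the authors' deposited table Slc25a13 had a log2 fold change of -0.58 (SE 0.15, adjusted p = 0.00108), the opposite sign from the NSPC value of 0.82, a difference that was not tested. Slc25a51, the NAD carrier, had 0.12 (adjusted p = 0.00556) in the authors' deposited table, and Slc25a10, Slc25a30 and Slc25a4 had 0.29, 0.22 and 0.06 (adjusted p = 0.0299, 0.0402 and 0.0229). The NSPC values of these 3 under crotonate were -0.03, 0.45 and -0.10. Slc25a11 had -0.14 (adjusted p = 0.0208) in the authors' deposited table and -0.16 in NSPCs. Ucp2 had -0.20 with an SE of 0.12 and an adjusted p of 0.229 in the authors' deposited table, and Slc25a20 had -0.06 (adjusted p = 0.759). The counts of calls in the authors' deposited table became 2 higher and 2 lower when the p-values were adjusted over all genes with a p. The shares of all genes after that adjustment are not given here. The direction of these changes rests on the name of the authors' deposited table.

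Peaks were counted where they touched a gene or the 1 kb on either side of it, and depth differs between lists in ways that the files do not give. Kac peaks lay near 31 of the 40 tested carriers in control NSPCs, 29 with crotonate and 8 with MS-275, where all 13775 tested genes with a position had 73%, 70.3% and 25.4%. Kcr peaks lay near 26, 31 and 12 carriers, where all genes had 64.6%, 74.7% and 23.4%. In forebrain 35 carriers had an H3K9ac peak and 34 an H3K9cr peak, against 88.2% and 78.1% of genes. The MS-275 lists hold 7555 Kac and 5845 Kcr peaks against 23427 and 17669 in control, and the part of list length in a missing MS-275 peak was not tested. In the forebrain lists, whose fold enrichments are the authors', Slc25a3 had the highest values among the carriers, 81.8 for H3K9ac and 30.2 for H3K9cr. Slc25a37 and Slc25a47 had no peak in any of the 8 lists although they stood at 19.7 and 7.82 TPM in control NSPCs.

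**Figure D4:**
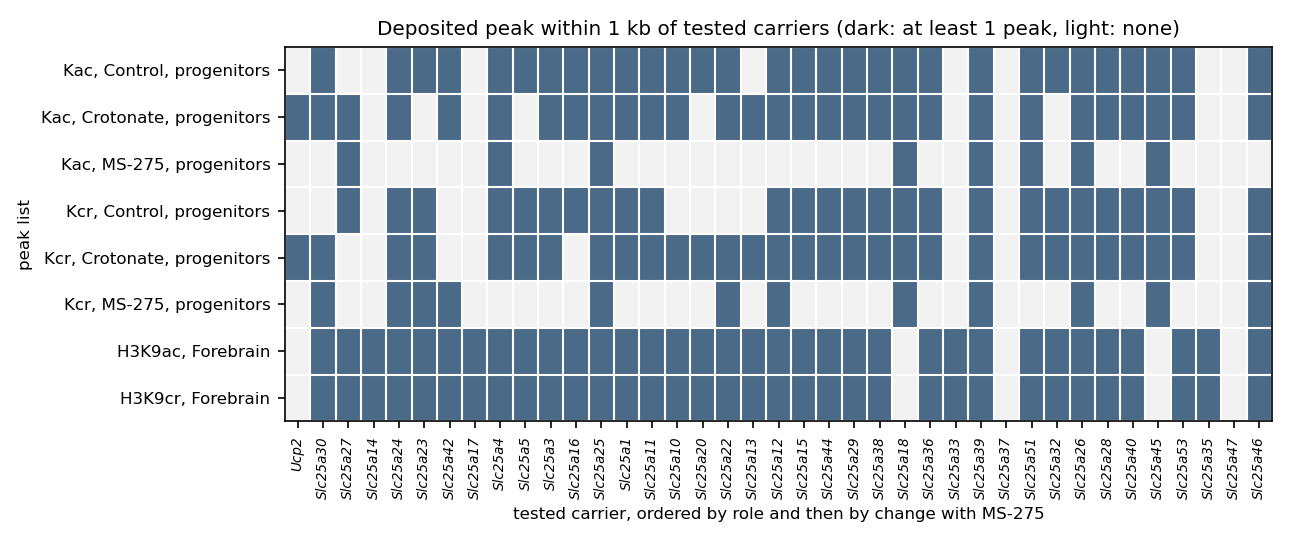
Presence (dark) or absence (light) of at least 1 deposited peak within 1 kb of 39 of the 40 tested carriers (x axis, by role and then by change with MS-275) in the 8 peak lists (y axis). Ucp2 is dark in both crotonate lists only, and Slc25a18 in all 6 NSPC lists and in neither forebrain list.

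Kcr peaks were gained with crotonate at 7 carriers, among them Ucp2, Slc25a13, Slc25a20, Slc25a30, Slc25a10 and Slc25a22, where 15.9% of genes gained one, and lost at 2, Slc25a16 and Slc25a27, against 5.82%. Their median log2 fold change with crotonate was 0.45 for the 7 that gained, beside 0.38 for all genes that gained. Kac peaks were gained with crotonate at 3 (Ucp2, Slc25a13 and Slc25a27; 8.4% of genes) and lost at 5 (11.1% of genes). With MS-275, Kac was gained at 1 and lost at 24, against 2.12% and 49.8% of genes, and Kcr was gained at 3 and lost at 17, against 3.41% and 44.6%.

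At Ucp2 (chr7:100493337-100499629, GRCm38) no peak was listed in control, MS-275 or forebrain. With crotonate a Kac peak at chr7:100493402-100493737 and a Kcr peak at chr7:100493338-100493707 covered the stretch just after the sequence printed above, with centres 211 and 164 bases past the listed start. A second Kcr peak lay at chr7:100495426-100495601, inside the gene. MS-275 gave the higher Ucp2 RNA and had no listed peak there. At Slc25a13 a Kac peak at chr6:6216963-6217364 reached into the printed stretch and a Kcr peak lay at chr6:6216592-6217142, both with crotonate only among the NSPC lists. Slc25a20 had a Kac peak in control at chr9:108662188-108662353 and none with crotonate, where a Kcr peak at chr9:108662156-108662433 was listed in its place. Slc25a30 had a Kac peak near its start in control and crotonate, and Kcr peaks with crotonate at chr14:75786755-75786929 and with MS-275 at chr14:75786588-75786898.

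Slc25a18 (chr6:120773504-120794169) had peaks in all 6 NSPC lists and none in either forebrain list, alongside 142 TPM in control NSPCs and 0.759 TPM in forebrain. Control Kac and Kcr peaks past its start, at chr6:120773596-120774783 and chr6:120773647-120774409, had counterparts with crotonate at chr6:120773662-120774286 and chr6:120773865-120774165. Upstream of the start, control had a Kac peak at chr6:120772790-120773142 and a Kcr peak at chr6:120772729-120773134. Crotonate had a Kac peak there at chr6:120772715-120773131. With MS-275 only upstream peaks were listed, at chr6:120772739-120772939 and chr6:120772785-120773025, and Slc25a18 RNA was 0.612 of control. The part of the shorter MS-275 lists in the peaks missing past the start was not tested. With 1 library in each list these differences in peaks have no replicate check.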

How the data were processed

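RNA levels are TPM values that the authors deposited in 1 table. The submitters' processing notes name Salmon 1.0.0 and DESeq2 1.26.0 for RNA, Bowtie2 2.3.5.1 and MACS2 2.2.5 for ChIP, and GRCm38, without giving their roles. TPM was used as log2(TPM + 1), with genes at 1 TPM in at least 4 of 12 NSPC libraries kept. One limma 3.58.1 fit (R 4.3.3, eBayes with trend) over the 3 NSPC groups tested all 14857 genes, with Benjamini-Hochberg adjustment over all of them and a threshold of 0.05. Simulated data with known changes were used to check the fit. Fold changes of low genes are understated on this scale. A few abundant genes can shift TPM shares, so median-of-ratios scaling and quantile normalization were tried, as were pseudocount 0.1, no filter, no trend, a replicate block and leaving out each library.

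The labels number the replicates alike in each group. Same-numbered libraries deviated together in all 12 pairs (r 0.119 to 0.241, against -0.197 to 0.0993 for the other 36 pairs). The replicate block ended no call of a carrier. With it crotonate had 15 carriers higher and 6 lower, MS-275 16 and 13, and MS-275 against crotonate 13 and 12. The shares of all tested genes called with the block are not given here. The labels call the samples biological replicates and do not say whether the cultures were separate.

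The explant log2 fold changes, p-values and adjusted p-values are the authors', in their deposited table. Adjusted p-values listed as 1 because none was computed were left out. Peak lists were deposited by the authors, 1 library each. The forebrain lists hold fold enrichment as signal, −log10 p and −log10 q, and a score, as deposited, and the NSPC lists hold the peak positions used here. Peaks were matched to RefSeq genes (GRCm38.p6) by an overlap of at least 1 bp with the gene widened by 1 kb, with bedtools 2.31.1. Of the 40 tested carriers 31 matched the promoter table. The forebrain methylation data were not used here.

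The carriers, gene lists and tests were chosen with earlier results of these data known. Per-library values are given for carriers past the threshold with a log2 fold change of at least 0.8 and 5 TPM in the higher group, for the 4 with the highest mean, and for those called both in explants and NSPCs. They are also given for Slc25a40, the paralog of Slc25a39. Other carriers named, and the paralog pairs, were chosen after their values were seen. From each list the 2 genes with the smallest adjusted p per direction are named. Values of some single genes are not reported here, and they stay in the counts.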

Additional observations from a re-analysis of the deposited data

Results flagged for a closer look

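In 7 of 120 sets of 4 libraries (40 carriers in 3 NSPC groups) 1 library stood far from the others relative to the range, and chance alone gives about 1 in 20. Of these, 5 were in the MS-275 group. Slc25a18 stood at 105 TPM in MS-275 library 1 and Slc25a1 at 141 TPM in the same library. Slc25a36 stood at 129.9 TPM, Slc25a39 at 224 TPM and Slc25a38 at 12.02 TPM in MS-275 library 2. Slc25a16 stood at 17.01 TPM in crotonate library 4, and Slc25a44 at 21.2 TPM in control library 3. Without the library in question the MS-275 calls of Slc25a18, Slc25a36, Slc25a38 and Slc25a39 against control all stayed past the threshold in limma, while the call of Slc25a38 against crotonate did not.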

How the results depend on the processing

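With crotonate, 6 of 20 calls ended after median-of-ratios scaling, 4 under quantile normalization and 2 on leaving out a library. With MS-275 4, 6 and 5 of 29 ended, and between the treatments 0, 1 and 4 of 25. With crotonate median-of-ratios scaling gave 8 carriers higher and 11 lower in place of 14 and 6, and quantile normalization 11 lower. The log2 fold change of Slc25a24 with crotonate became -0.021 and that of Slc25a3 with MS-275 0.054 under quantile normalization. Adjusting the explant p-values over all genes left 2 carriers higher. Kac peaks with MS-275 were near 4 carriers by gene body alone and near 5 within 1 kb of the start, where only the 31 carriers with a listed start count. Leaving out each library gave 13 to 15 carriers higher and 5 to 6 lower with crotonate, 14 to 17 and 11 to 13 with MS-275, and 10 to 13 and 11 to 13 between the treatments. In forebrain, leaving out a control library gave 5 higher and 6 to 7 lower. All alternatives kept the calls of 13 of 20 carriers with crotonate, 20 of 29 with MS-275 and 21 of 25 between treatments, and the replicate block ended none of them. The like shares over all genes are not given here. The causes were not tested. The forebrain library and the peak lists have no replicates, and without read depth low levels cannot be given a counting error.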
